A study of Caenorhabditis elegans with 6 samples.

Results

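Receptors for acetylcholine and related pentameric channels were compared between RIS, a sleep-inducing interneuron of Caenorhabditis elegans, and whole L1 larvae. The genes were chosen by name. They comprised every acr, lgc and gar gene of the authors' deposited table, with unc-29, unc-38, unc-63, lev-1, lev-8, eat-2, deg-3, des-2 and ggr-1 to ggr-3, and without the GABA, serotonin and other amine channels lgc-35, lgc-37, lgc-38, lgc-50, lgc-53 and lgc-55. Of the 12072 genes in that table, 57 met this rule. A reference list of gene names held 82 that met it, and the other 25, unc-63, acr-5 and acr-6 among them, were not analysed here.

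The labels list 3 libraries of RIS cells, sorted by fluorescence from dissociated L1 larvae of the RIS::mKate strain, in which the flp-11 promoter limits the red marker to RIS. They list 3 reference libraries of whole N2 larvae of the same stage, frozen over liquid nitrogen without a sort. Both kinds of larvae hatched overnight in M9 buffer after hypochlorite treatment of adult hermaphrodites. The sorting notes name AVK and mCherry in place of RIS and mKate. The RIS markers flp-11, aptf-1, lim-6, unc-25, unc-47 and ser-4 were all higher in the sorted cells (6 of 6). Of these, flp-11 bears little on identity, because its promoter drives the marker used for the sort. By contrast, 0 of 4 AVK genes passed an adjusted p of 0.05 in the edgeR-format test of the authors. By that test twk-47 alone lay lower at an unadjusted p below 0.05 (1 of 4). Once the median fold change of all genes was subtracted, AVK genes called higher were unc-42, at 2.05 (adjusted p = 0.0415), and flp-1, at 1.44 (adjusted p = 0.0452), and the summed level of the 4 was about 123 CPM in RIS and 76.0 CPM in whole L1.

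Acetylcholine is the main excitatory transmitter of the worm's motor system, and it acts through channels as well as G protein-coupled receptors. Nicotinic receptors are cation channels whose subunits form a ring around a pore. They belong to the Cys-loop proteins, named after a loop closed by a disulphide bond. Worms also have Cys-loop chloride channels that acetylcholine opens, so the same transmitter can excite or inhibit a cell according to the receptor it carries. Many lgc genes (ligand-gated channel) belong to the same superfamily but have no transmitter assigned to them with certainty. The muscarinic gar receptors are no channels and signal through G proteins.

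The deposited table holds a log2 fold change of RIS over whole L1, a mean level and an adjusted p per gene, and no value per library, so the spread between libraries is seen only through the test. Separate cultures are not named in the labels, and the p-values may thus measure technical spread alone. Approximate 95% limits of the fold change were derived here from the deposited F value, and approximate levels for each group, in read counts scaled to library size (CPM), were derived from the mean and the fold change, with equal weight on the groups. The sorted cells are a bulk sample, in which fewer cells with a transcript and less transcript per cell cannot be told apart. Across all 12072 genes the median log2 fold change was −0.78, so a gene at 0 lies above the typical gene.

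Of the 57 receptor genes, 12 were higher and 21 lower in RIS at the threshold of 0.05 on the adjusted p of the authors' deposited table. That is 57.9% of them called, against a background of 36.2% of all genes. The higher genes made up 21.1% of the 57, where 9.84% of all genes were higher, and the lower genes 36.8%, where 26.4% of all genes were lower. The median log2 fold change was −1.15, against −0.78 over all genes, and the values lay far apart. Of the 12 rises, 8 were at least 16-fold and 5 at least 32-fold. Their median log2 fold change was 4.31, against 2.90 for all genes called higher. Of the 21 falls, 5 lay at few RIS reads, where the fitted fold depends on an unstated prior count and is not given, and 12 of the remaining 16 were at least 32-fold. Fitted folds just above the position of few reads, such as those of unc-29, eat-2, gar-3 and acr-7, are uncertain as well. These genes are counted among the falls of at least 32-fold. Shares of all genes at these fold limits were not computed, so the counts by fold have no background. The 24 genes that were not called lay between −2.44 and 2.14.

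**Figure D1:**
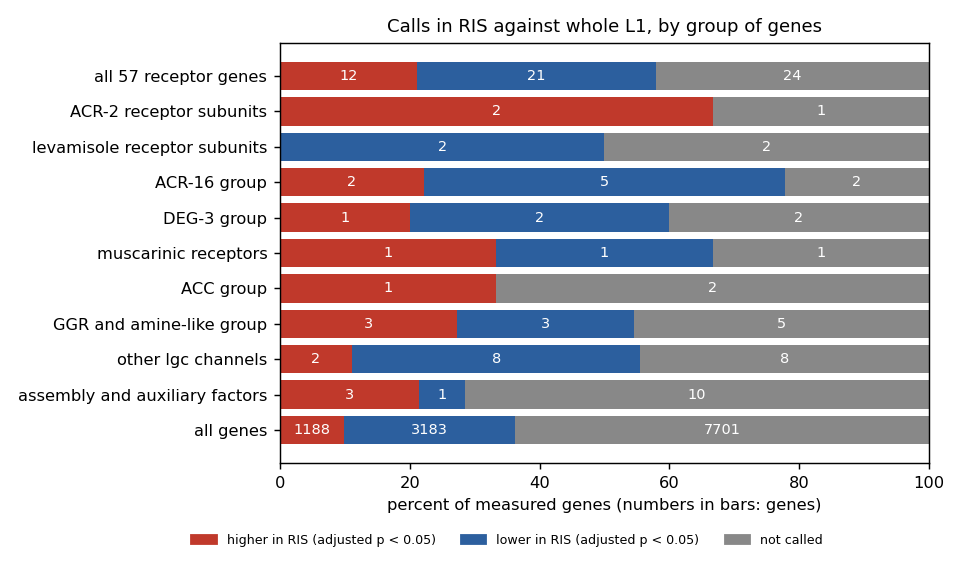
Percent of measured genes (x axis) that were higher, lower or not called in RIS against whole L1 at an adjusted p below 0.05, for each group of genes (rows), with the number of genes in each bar. The ACR-2 receptor row has 2 of 3 genes higher and 0 lower, while the row of other lgc channels has 2 higher and 8 lower of 18, and the bottom row gives all 12072 genes.

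With the median gene of the table set to 0, 16 of the 57 were higher and 20 lower, where 16.6% of all genes were higher and 20.3% lower. By this scale lgc-47, lgc-26, unc-38 and lgc-25 gained a call as higher, lgc-34 lost its call as lower, and no other of the 57 genes changed its call.

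Of the nicotinic subunit genes, acr-2 had the highest approximate level in RIS per kilobase of exon. It encodes a part of the ACR-2 receptor, which excites cholinergic motor neurons. Its approximate level was 155 CPM in RIS, against 8.35 CPM in whole L1. This was an 18.6-fold rise by the authors' deposited table (log2 fold change 4.21, approximate 95% limits 2.84 to 5.58, adjusted p = 0.00442). The gene acr-12 encodes an alpha subunit of the same receptor that GABA motor neurons use as well. Its approximate level was 55.1 CPM in RIS, against 5.79 CPM in whole L1, with a log2 fold change of 3.25 (limits 1.65 to 4.85, adjusted p = 0.0104) by the authors' deposited table. The gene of another non-alpha subunit of this receptor, acr-3, was not called, at −2.44 (limits −5.08 to 0.20, adjusted p = 0.133) by the authors' deposited table. It lay at about 0.622 CPM in RIS and 3.38 CPM in whole L1. Thus acr-2 and acr-12 rose, and acr-3 had low levels in both groups and wide limits that include 0.

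The alpha subunits UNC-38 and UNC-63 take part both in the ACR-2 receptor and in the levamisole receptor of body wall muscle, through which motor neurons make muscle contract. For unc-38 the authors' deposited table gave 1.61 (limits 0.09 to 3.14, adjusted p = 0.0932), short of the threshold, at about 51.3 CPM in RIS and 16.8 CPM in whole L1. With the median gene set to 0 it was called higher (2.39, adjusted p = 0.0262). The gene unc-29, which encodes an essential non-alpha subunit, fell 41.99-fold (−5.39, limits −7.76 to −3.03, adjusted p = 0.00740) by the authors' deposited table. Its approximate level was 0.135 CPM in RIS, just above the position of few reads, against 5.67 CPM in whole L1. The alpha subunit gene lev-8 also fell, to few RIS reads, with an adjusted p of 0.00716 by the authors' deposited table and about 3.95 CPM in whole L1. The non-alpha subunit gene lev-1 was not called, with −1.15 (limits −2.40 to 0.10, adjusted p = 0.136) by the authors' deposited table, and it lay at about 25.3 CPM in RIS and 56.0 CPM in whole L1. Of the 4 measured levamisole receptor genes, 0 were thus higher and 2 lower by the edgeR-format test of the authors. Over all genes 9.84% were higher and 26.4% lower by that test. Of the 4, 3 had an unadjusted p below 0.05. Counted with the median gene set to 0, 1 was higher (unc-38) and 2 lower, where 16.6% of all genes were higher and 20.3% lower.

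Of the markers of body wall muscle, 4 of 6 were lower and 0 higher by the authors' test. The myosin gene unc-54 went the other way without a call, at about 3846 CPM in RIS and 1943 CPM in whole L1 (0.98, limits 0.06 to 1.91, adjusted p = 0.0913 by the authors' deposited table), and with the median gene set to 0 it was called higher (1.76, adjusted p = 0.0139). The summed level of the 6 was about 4703 CPM in RIS and 8524 CPM in whole L1, and most of the RIS sum was unc-54. In RIS the next largest was unc-15, at about 722 CPM, against 5743 CPM in whole L1. The myogenic factor gene hlh-1 lay at few RIS reads. The part of these muscle markers in the values of the muscle subunits was not tested. Markers of cholinergic neurons had 0 of 4 measured genes higher and 1 lower, unc-3, at about 1.39 CPM in RIS and 28.6 CPM in whole L1. By the authors' deposited table the uncalled unc-17 (1.27, adjusted p = 0.247) and cho-1 (1.58, adjusted p = 0.301) lay above 0. The uncalled cha-1 lay below 0 there (−0.47, adjusted p = 0.779). The summed level of the 4 was about 33.1 CPM in RIS and 47.3 CPM in whole L1, and most of the whole L1 sum was unc-3. The part of these markers in the rise of acr-2 and acr-12 was not tested either.

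The ACR-16 sequence group holds subunits that resemble the vertebrate alpha-7 receptor, and its members moved in opposite directions. Here 2 of 9 measured genes were higher and 5 lower (22.2% and 55.6%, against 9.84% and 26.4% of all genes). The subunit gene acr-19, of which little is known, had an approximate level of 28.4 CPM in RIS, against 0.866 CPM in whole L1. It rose 32.8-fold (5.03, limits 3.62 to 6.44, adjusted p = 0.00343) by the authors' deposited table, the largest rise among the 22 nicotinic genes. The subunit gene acr-9 rose by a log2 fold change of 3.08 (limits 1.51 to 4.65, adjusted p = 0.0118) by the authors' deposited table, to about 29.2 CPM in RIS, against 3.46 CPM in whole L1. The founding member acr-16, the homomeric nicotine receptor of body wall muscle, was not called. For it the authors' deposited table gave 2.13 (limits −0.95 to 5.22, adjusted p = 0.249), with limits on both sides of 0.

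The falls in the ACR-16 group included a subunit of pharyngeal muscle. In the authors' deposited table eat-2, whose product lets the pharynx pump fast, fell 71.5-fold (−6.16, limits −9.25 to −3.07, adjusted p = 0.0111). It lay at about 0.198 CPM in RIS and 14.2 CPM in whole L1. Log2 fold changes of acr-7 (−5.75, adjusted p = 0.00607), acr-11 (−5.22, adjusted p = 0.0102) and acr-14 (−3.75, adjusted p = 0.0166) were lower too by the authors' deposited table. The gene acr-25 fell to few RIS reads (adjusted p = 0.00710 by the authors' deposited table). The gene acr-15 lay at −2.07 and missed the threshold by the authors' deposited table (adjusted p = 0.0951). Pharyngeal muscle markers, 4 of 4 lower, had a summed level of about 149 CPM in RIS and 1732 CPM in whole L1, and their part in the fall of eat-2 was not tested.

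**Figure D2:**
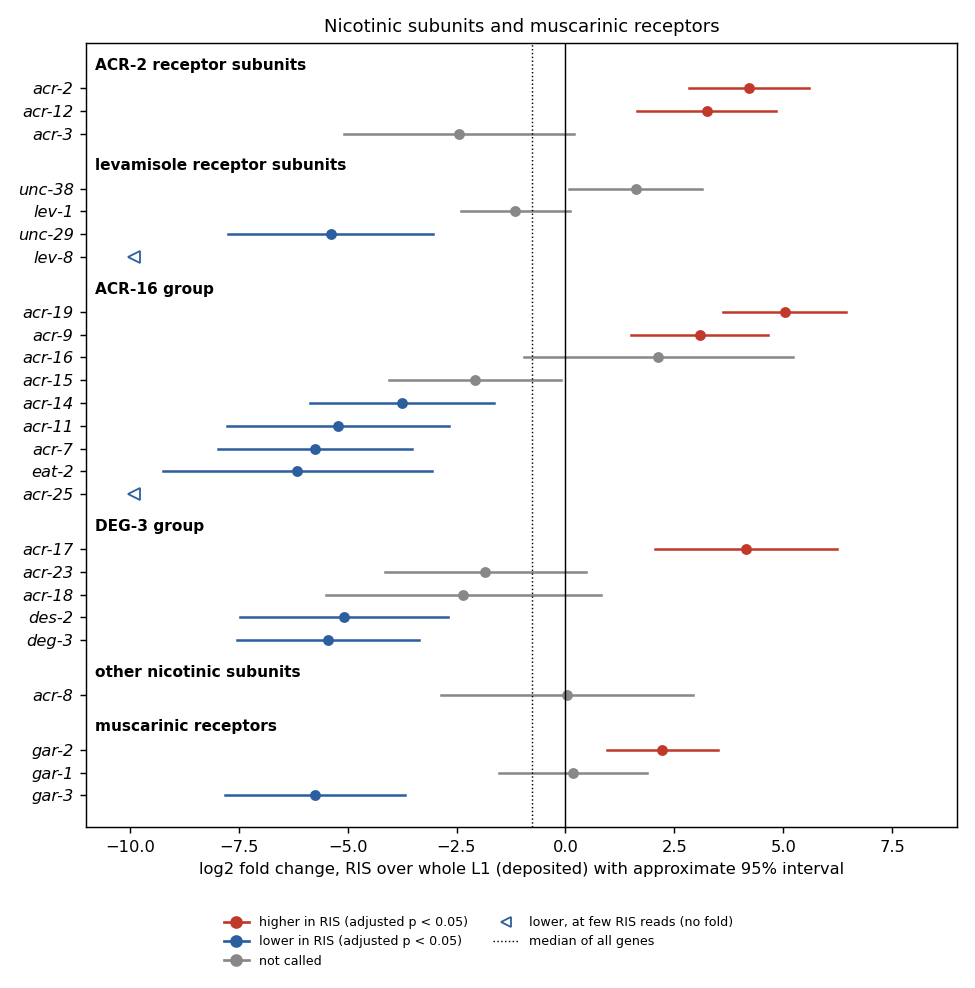
Deposited log2 fold change of RIS over whole L1 (x axis) for each nicotinic subunit and muscarinic receptor gene (rows, grouped by role), with dots for the values, bars for the approximate 95% interval, open triangles for genes at few RIS reads and a dotted line at the median of all genes (−0.78). The red genes acr-2, acr-12, acr-19, acr-9, acr-17 and gar-2 lie right of 0 with intervals that do not reach it, and unc-29, eat-2, deg-3, des-2 and gar-3 lie beyond −5.

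The DEG-3 group held 1 riser and 2 fallers among 5 measured genes (20% and 40%, against 9.84% and 26.4% of all genes). Its list also named acr-22, which was not found under that name. The gene ID of lgc-11, a faller counted here with the other lgc channels, lies between those of acr-19 and acr-23. Whether lgc-11 is the former acr-22 was not examined. If it is, the counts for this group, the nicotinic genes and the other lgc channels change. The subunits DEG-3 and DES-2 join into a choline-sensitive channel of sensory neurons, and a hyperactive form of DEG-3 makes touch neurons degenerate. Their genes fell together, with log2 fold changes of −5.45 for deg-3 (limits −7.53 to −3.36, adjusted p = 0.00587) and −5.08 for des-2 (limits −7.46 to −2.70, adjusted p = 0.00893) by the authors' deposited table. Approximate levels were 0.243 CPM in RIS and 10.6 CPM in whole L1 for deg-3, and 0.294 CPM in RIS and 9.94 CPM in whole L1 for des-2. Touch neuron markers were lower in 3 of 5 cases with 0 higher, but mec-18 alone stayed lower with the median gene set to 0 (1 of 5). They lay at a summed level of about 359 CPM in RIS and 803 CPM in whole L1, and their part was not tested. The riser was acr-17 (4.14, limits 2.05 to 6.23, adjusted p = 0.0114 by the authors' deposited table), at a low level of about 2.08 CPM in RIS and 0.118 CPM in whole L1. The betaine receptor gene acr-23 (−1.84, adjusted p = 0.191) and acr-18 (−2.34, adjusted p = 0.219) were not called by the authors' deposited table. Outside these groups, acr-8, a relative of lev-8, lay at 0.04 (limits −2.86 to 2.93, adjusted p = 0.986) by the authors' deposited table. In all, 5 of the 22 measured nicotinic genes were higher and 9 lower (22.7% and 40.9%, against 9.84% and 26.4% of all genes).

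The 3 muscarinic receptor genes split 3 ways, with 1 higher and 1 lower (33.3% each, against 9.84% and 26.4% of all genes). The gene gar-2, whose product couples to inhibitory G proteins and restrains motor neurons, rose 4.69-fold (2.23, limits 0.96 to 3.50, adjusted p = 0.0174) by the authors' deposited table. It lay at about 23.6 CPM in RIS and 5.03 CPM in whole L1. The gene gar-3, whose product couples to Gq and acts in the pharynx and in motor neurons, fell to about 0.203 CPM in RIS, against 10.9 CPM in whole L1. Its log2 fold change was −5.74 (limits −7.81 to −3.68, adjusted p = 0.00527) by the authors' deposited table. The remaining receptor gene, gar-1, was not called (0.17, limits −1.53 to 1.88, adjusted p = 0.878 by the authors' deposited table), at about 2.84 CPM in RIS and 2.52 CPM in whole L1.

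Acetylcholine-gated chloride channels, the ACC group, had 1 of 3 measured lgc members higher and 0 lower by the edgeR-format test of the authors. That is 33.3% and 0%, against 9.84% and 26.4% of all genes. By the same test 2 had an unadjusted p below 0.05, both of them positive. The channel LGC-46 acts at the release sites of cholinergic motor neurons. Its gene rose 13.4-fold (3.74, limits 2.15 to 5.33, adjusted p = 0.00697) by the authors' deposited table, to about 15.1 CPM in RIS, against 1.13 CPM in whole L1. Its relative lgc-47 lay at 2.14 (limits 0.42 to 3.87) and just missed the threshold (adjusted p = 0.0579) by the authors' deposited table, at about 101 CPM in RIS and 22.9 CPM in whole L1. The gene lgc-49 was not called by the authors' deposited table (−0.72, adjusted p = 0.547). The acc genes, which belong to the same group but fall outside the naming rule, had 2 of 3 higher and 0 lower. The authors' deposited table gave 3.91 (adjusted p = 0.00670) for acc-4, 3.30 (adjusted p = 0.00719) for acc-1 and 1.96 (adjusted p = 0.0963) for acc-3. Relative to the median gene acc-3 was called higher too (2.73, adjusted p = 0.0334), which makes 3 of 3, where 16.6% of all genes were higher.

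The GGR and amine-like group gathers relatives of GABA, glycine and amine receptors. Of 11 measured genes 3 were higher and 3 lower (27.3% each, against 9.84% and 26.4% of all genes), so the share of lower genes was near the background. The gene ggr-2, now also called lgc-58, was named for its likeness to GABA and glycine receptors. It had an approximate level of 219 CPM in RIS, against 3.07 CPM in whole L1. Its 71.4-fold rise (6.16, limits 4.77 to 7.55, adjusted p = 0.00205) was the largest of the 57 genes by the authors' deposited table. The channel LGC-39 responds to acetylcholine and to amines when made in frog oocytes, and its gene rose 33.4-fold (5.06, limits 3.96 to 6.17, adjusted p = 0.00189) by the authors' deposited table. It lay at about 133 CPM in RIS and 3.98 CPM in whole L1. The gene lgc-54 also rose (4.41, limits 2.54 to 6.27, adjusted p = 0.00692 by the authors' deposited table), to about 8.40 CPM in RIS, against 0.396 CPM in whole L1. In the Ensembl annotation 9.44% of the exon length of lgc-54 overlaps T15B7.1 and 2.55% overlaps hpo-8, both on the other strand. The risers acr-9 (2.42%, with twk-20) and lgc-10 (0.996%, with Y73B6BL.31) also overlap coding exons on the other strand. Whether reads were counted by strand is not given in the sources used here.

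On the lower side of that group, lgc-43 fell 37.8-fold (−5.24, limits −6.88 to −3.60, adjusted p = 0.00417) by the authors' deposited table, to about 1.62 CPM in RIS, against 61.4 CPM in whole L1. The gene lgc-36 fell to few RIS reads (adjusted p = 0.00662 by the authors' deposited table). A smaller fall was that of lgc-34 (−1.72, limits −2.78 to −0.66, adjusted p = 0.0232 by the authors' deposited table), which lay at about 39.04 CPM in RIS, against 129 CPM in whole L1. With the median gene set to 0 that call ended (−0.94, adjusted p = 0.147). The other 5 genes, ggr-1, lgc-44, lgc-40, ggr-3 and lgc-45, were not called and lay between −1.21 (lgc-45) and 1.39 (ggr-1) by the authors' deposited table. Of these, lgc-44, lgc-40 and ggr-3 lay below 0 as deposited and above 0 with the median gene set to 0.

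Of the other lgc channels 2 of 18 were higher and 8 lower (11.1% and 44.4%). Falls outnumber rises among all genes too (26.4% and 9.84%), and the share of higher channels was near that background. Relative to the median gene, 4 were higher and 8 lower, where 16.6% of all genes were higher and 20.3% lower. The gene lgc-4 had an approximate level of 189 CPM in RIS, against 3.49 CPM in whole L1, and its 54.2-fold rise (5.76, limits 4.55 to 6.97, adjusted p = 0.00169) had the smallest adjusted p of the 57 genes by the authors' deposited table. The gene lgc-10 rose 36.8-fold (5.20, limits 3.23 to 7.18, adjusted p = 0.00575 by the authors' deposited table), at about 12.4 CPM in RIS and 0.336 CPM in whole L1.

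Of the 8 falls, lgc-1 and lgc-30 lay at few RIS reads, and lgc-1 had none by its degrees of freedom. Another 5 fell, with authors' deposited table values on the log2 scale of −5.98 for lgc-11, −5.62 for lgc-20, −5.10 for lgc-21, −5.05 for lgc-23 and −4.56 for lgc-12, with adjusted p from 0.00456 to 0.00992. The remaining one, lgc-27, fell 6.43-fold (−2.68, limits −4.04 to −1.33, adjusted p = 0.0115) by the authors' deposited table. It still lay at about 28.7 CPM in RIS, against 185 CPM in whole L1, and its 123 CPM per kb in whole L1 was the highest approximate level of the 57 genes there. The other 8 lgc channels were not called and lay between −2.11 (lgc-22) and 1.94 (lgc-31) by the authors' deposited table. Among them lgc-26 had an approximate level of 95.4 CPM in RIS and 25.8 CPM in whole L1, with a log2 fold change of 1.89 (limits 0.14 to 3.63, adjusted p = 0.0878) by the authors' deposited table.

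**Figure D3:**
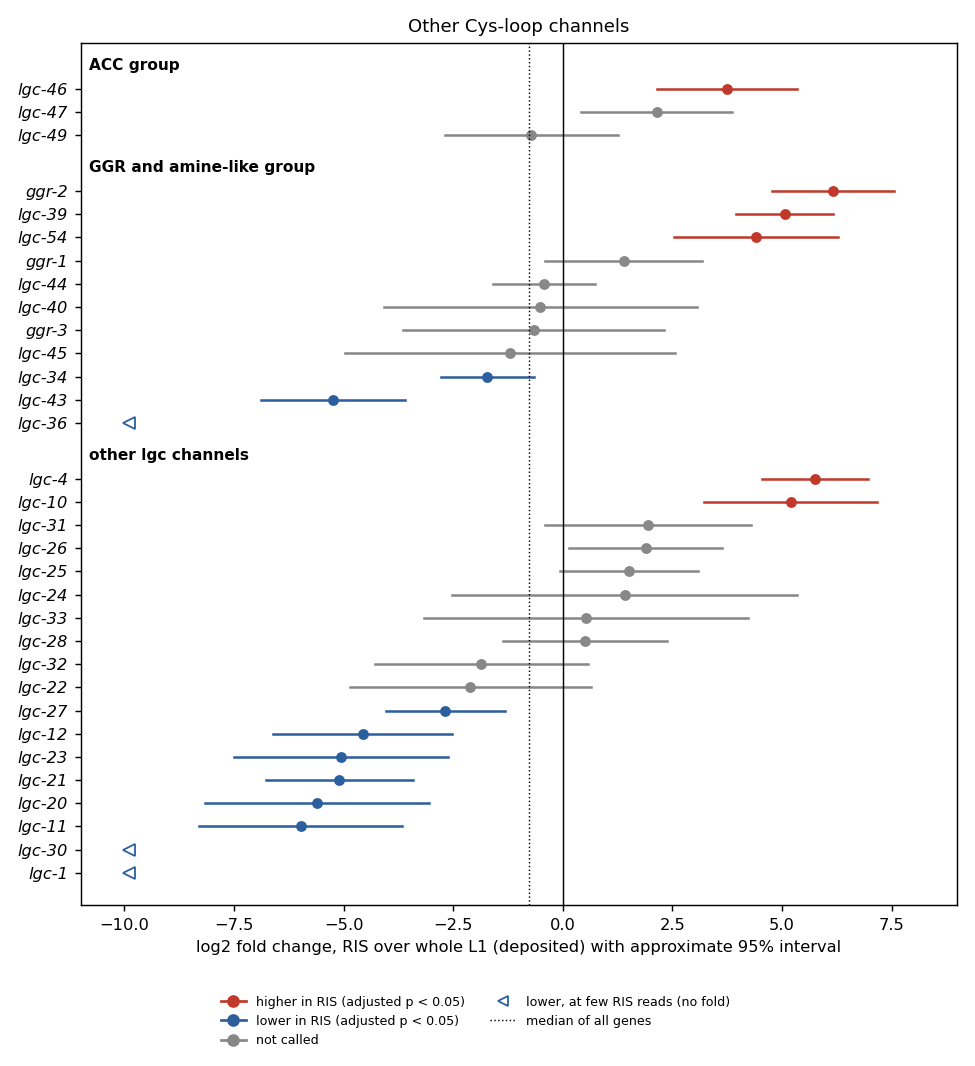
Deposited log2 fold change of RIS over whole L1 (x axis) for each ggr and lgc gene (rows, grouped by role), with dots for the values, bars for the approximate 95% interval, open triangles for genes at few RIS reads and a dotted line at the median of all genes (−0.78). The 6 red genes ggr-2, lgc-4, lgc-10, lgc-39, lgc-54 and lgc-46 lie between 3.74 and 6.16, apart from the 8 lower genes with a fold, of which 6 lie beyond −4.5.

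Levels were compared between genes per kilobase of annotated exon. On this scale the highest approximate levels in RIS were those of ggr-2 (102 CPM per kb), lgc-4 (82.9 CPM per kb), acr-2 (76.0 CPM per kb) and lgc-39 (71.3 CPM per kb). In whole L1 the same genes lay at 1.43 CPM per kb (ggr-2), 1.53 CPM per kb (lgc-4), 4.10 CPM per kb (acr-2) and 2.13 CPM per kb (lgc-39). Next in RIS came lgc-26 (57.9 CPM per kb), lgc-47 (53.4 CPM per kb) and unc-38 (30.5 CPM per kb), none of which passed the adjusted threshold as deposited. In whole L1 these 3 were at 15.7 CPM per kb (lgc-26), 12.1 CPM per kb (lgc-47) and 9.98 CPM per kb (unc-38). The gene lgc-34, called lower, followed at 27.6 CPM per kb in RIS and 90.7 CPM per kb in whole L1. Close to it lay acr-12, called higher, at 26.8 CPM per kb in RIS and 2.81 CPM per kb in whole L1. With 2 RIS and 3 whole libraries in the mean, their order turned, with 24.9 CPM per kb in RIS for lgc-34 and 31.9 CPM per kb in RIS for acr-12. How far neighbours in this order differ beyond their spread could not be tested without values per library.

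**Figure D4:**
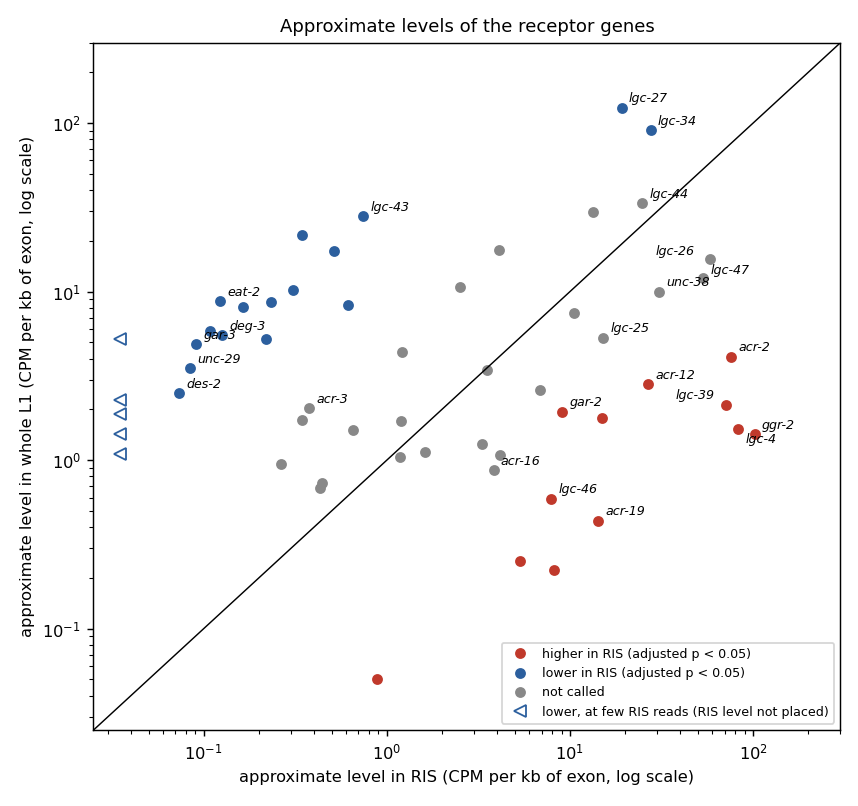
Approximate level of each receptor gene in RIS (x axis) against whole L1 (y axis), both in CPM per kb of exon on log scales, with the diagonal marking equal levels and open triangles marking genes at few RIS reads, whose RIS level is not placed. The genes ggr-2, lgc-4, acr-2 and lgc-39 lie at the right, at 71.3 CPM per kb or more in RIS, and lgc-27 and lgc-34 lie at the top, high in both groups.

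For the 12 risers the approximate level in whole L1 was between 0.118 CPM (acr-17) and 8.35 CPM (acr-2), with a median of 3.26 CPM, and for the 21 fallers between 1.996 CPM (acr-25) and 185 CPM (lgc-27), with a median of 10.9 CPM. Since the level in whole larvae is a part of the fold change itself, this is a description. Summed over the risers, the approximate level was 870 CPM in RIS and 36.01 CPM in whole L1. Over the fallers it was 74.4 CPM in RIS, of which lgc-34 gave 39.04 CPM and lgc-27 28.7 CPM, and 573 CPM in whole L1. Over all 57 genes it was 1367 CPM in RIS and 899.6 CPM in whole L1. The sums for the fallers and for all 57 include uncertain fitted RIS levels of the genes at few RIS reads. Risers and fallers were split by direction, so their opposite sums follow from that split.

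By position, 17 of the 57 genes (29.8%) lie on the X chromosome, which holds 14.8% of all genes in the table. On the X 5 of the 17 were higher and 4 lower, where 13.2% of all X genes in the table were higher and 30.7% lower. On chromosome II 0 of 10 were higher and 6 lower by the edgeR-format test of the authors, which also gave an unadjusted p below 0.05 for 6. There 9.32% of all genes were higher and 27.7% lower. Of the risers acr-2, acr-12, acr-9, ggr-2 and lgc-4 lie on the X.

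There were 5 pairs of genes from the list with at most 10 kb between them, and in 1 of them both genes were called in the same direction, in another 1 in opposite directions. The authors' deposited table names no build. In its coordinates deg-3 spans V 11412870 to 11415159 and des-2 spans V 11415342 to 11420293. With 182 bases between them on the same strand, both genes of this pair fell. The gene acr-2 spans X 6702463 to 6709142 and acr-3 spans X 6709538 to 6712925 by the authors' deposited table, 395 bases apart on the same strand. Their log2 fold changes were 4.21 (acr-2) and −2.44 (acr-3) by the authors' deposited table, and only acr-2 was called. The approximate limits of these neighbours, 2.84 to 5.58 for acr-2 and −5.08 to 0.20 for acr-3, do not overlap, though their difference was not tested. The genes lgc-23 (fell) and lgc-24 (not called, 1.41 by the authors' deposited table) lie 1117 bases apart, acr-15 and acr-16 (neither called) 5827 bases apart, and lgc-10 (rose) and acr-25 (fell) 6808 bases apart.

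Genes that help nicotinic receptors to assemble, reach the surface and cluster were taken from a separate list. Of 14 measured factors 3 were higher and 1 lower, 21.4% and 7.14%, against 9.84% and 26.4% of all genes. The chaperone gene ric-3, needed for nicotinic subunits to mature, rose by the authors' deposited table (1.85, limits 0.54 to 3.15, adjusted p = 0.0375). The gene lev-10, whose product gathers levamisole receptors at muscle synapses, rose 2.66 on the log2 scale by the authors' deposited table (limits 1.62 to 3.69, adjusted p = 0.00609), to about 69.1 CPM in RIS, against 10.96 CPM in whole L1. The receptor kinase gene cam-1, which helps to place ACR-16 at muscle synapses, rose as well (1.82, limits 0.74 to 2.90, adjusted p = 0.0200 by the authors' deposited table). The synaptic adhesion gene nlg-1 (neuroligin) fell, with a log2 fold change of −4.20 (limits −6.23 to −2.17, adjusted p = 0.00995) by the authors' deposited table.

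Other factors of the list were not called. The partner of lev-10 at the muscle synapse, lev-9, lay at −2.72 (adjusted p = 0.0674) by the authors' deposited table, and the clustering gene oig-4 at −0.67 (adjusted p = 0.674). For the trafficking gene unc-50 the authors' deposited table gave 2.20, for the auxiliary subunit gene molo-1 1.66, 0.88 for nra-4 and 0.37 for nra-2, regulators of subunit assembly, and for lin-17, a Frizzled receptor gene, 0.23. In the same authors' deposited table emc-6, of the membrane insertion complex, lay at −0.56, the Dishevelled gene dsh-1 at −0.67 and the synapse organiser gene madd-4 at −0.83. With the median gene set to 0 nra-4 was called higher (1.66, adjusted p = 0.0208), and 4 of 14 were then higher and 1 lower. By that scale 16.6% of all genes were higher and 20.3% lower. The genes unc-74, crld-1 and eat-18 were not analysed here.

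For comparison, the amine and GABA channels that the naming rule leaves out had 3 of 5 measured genes higher, lgc-53, lgc-50 and lgc-55, and 1 lower, lgc-35, at few RIS reads, by the authors' deposited table. That is 60% and 20%, against 9.84% and 26.4% of all genes.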

How the data were processed

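The only file analysed was the authors' deposited table of RIS against whole L1, with 12072 genes and 12 columns. Its log2 fold change and mean log2 CPM, named per the file headers, were deposited by the authors on the log2 scale. The F score and the unadjusted and adjusted p-values were also deposited by the authors, in the format of their edgeR quasi-likelihood test. How reads were aligned, counted and filtered, the build and the library totals are not given in the sources used, so depth is unknown. Values per library are lacking, and 0 columns of that kind were left unused. The planned count test was therefore replaced by the authors' adjusted p below 0.05.

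Denominator degrees of freedom, recovered from F and p, were 6.76 for most genes and 5.76 for the 170 without RIS reads. A loss of 1 is what a group of 2 libraries would give, whereas the labels list 3. The standard error was the size of the log2 fold change divided by the root of F. A gene lies at few RIS reads when its log2 fold change plus log2 CPM is at most 4.8 above the median of those 170 and its fall exceeds 3 (log2), as for 946 genes, 5 of them among the 57. The margin of 4.8 was chosen after the data were seen, with an earlier account of the genes at few reads known. Approximate group levels weigh both groups equally. With 2 RIS and 3 whole libraries, RIS levels would be 0.837 to 1.24 times those given. Exon lengths came from the Ensembl release 115 annotation of WBcel235, matched by gene ID for all 57. Exons of 16 of the 57 overlap those of another coding gene. The test with the median gene set to 0 used the same standard error with Benjamini-Hochberg adjustment over all genes. It was also run on simulated data in which every gene had the same true standard error, unlike the genes here. There it missed the limit first set for the share of changed genes recovered, and that limit was then lowered.

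The genes, role groups and lists were chosen with earlier results of these data known. The rule was to name every called gene, uncalled nicotinic, muscarinic and ACC genes and all factors, and to give uncalled lgc and ggr genes by range. Those of the last kind that are named were chosen after their values were seen. Alternatives were a stricter adjusted p, a fold limit, an expression filter, removal of genes at few RIS reads, the median gene set to 0 and recomputed adjustment. Other group weights and removal of genes with overlapping exons were added after the data were seen. Scripts ran in Python 3.11.15 with scipy 1.17.1, numpy 2.4.6, matplotlib 3.10.9 and pandas 2.3.3.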

Additional observations from a re-analysis of the deposited data

How the results depend on the processing

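The counts of 12 higher and 21 lower genes were unchanged with a fold limit of 2, because the smallest called change was −1.72 (lgc-34). They were also unchanged with recomputed adjustment, which returned the deposited values and so could not alter them. There were 8 higher and 15 lower at an adjusted p below 0.01, 12 and 16 without genes at few RIS reads, 16 and 20 with the median gene set to 0, and 9 and 16 without genes whose exons overlap a coding gene. Genes at few RIS reads are falls by definition, so their removal could not change the count of rises. Of these changed counts, only those with the median gene set to 0 have a share over all genes (16.6% higher, 20.3% lower). For the others no such share was computed, so they cannot be set against a background. Among genes at or above the median mean expression, 8 were higher and 5 lower. The median log2 fold change of the receptor genes, −1.15 as deposited, turned to 1.75 with that expression filter, which by its construction kept genes on a mean that includes RIS. All 8 higher genes that passed it lay below its limit of 11.9 CPM in whole L1, so they passed through RIS alone, and the filtered counts and median support nothing. The median of the receptor genes was −0.59 without genes at few RIS reads, whose removal takes out falls alone. It was −0.37 with the median gene set to 0, which shifts all values alike. With the median gene set to 0, 4 uncalled genes changed sign, to 0.11 (ggr-3), 0.27 (lgc-40), 0.35 (lgc-44) and 0.057 (lgc-49), 4 gained a call and 1 lost it. At an adjusted p below 0.01, 9 of the 52 genes with a fold lost their call. No paired analysis was possible because the table holds no values per library. For the same reason replicates could not be left out in turn, and DESeq2 could not be run in place of the authors' test. The margin that defines few RIS reads was chosen after the data were seen, and 5 receptor genes lie within it. A margin smaller by 1 log2 unit holds 4, and one larger by 1 holds 9, with unc-29, eat-2, gar-3 and acr-7 added. Unknown depth limits the genes at few RIS reads, where absence and low level cannot be told apart.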
